A study of Mus musculus with 24 samples.

Results

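Interferon response genes are the genes that cells switch on when an interferon, a cytokine released on viral infection, reaches its receptor. They were followed here in brain and liver of newborn female mice, in controls and in animals cloned by nuclear transfer. The set was a list of 34 genes, found on the array by the gene name printed in the scanner files or by the current symbol of the probe's accession. The array held 33 of them, on 52 of its 41174 probes, among 27845 gene names in all; Xaf1 was not found under either name. A gene was tested in a tissue if some group had it well above background on each of its 4 arrays, which left 33 members in liver and 30 in brain. Cxcl10, Ifi44 and Mx1 did not pass in brain.

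The 24 single-colour arrays covered 2 tissues with 3 groups of 4 arrays each. The controls, NC, came from intracytoplasmic sperm injection (ICSI), in which a sperm is placed into the oocyte by a needle. CC animals were clones whose donor nuclei came from cumulus cells, the body cells around the oocyte. G20 animals were clones of generation 20 of serial cloning, in which nuclei of each clone generation give rise to the next, and all G20 arrays carry 1 source name, with replicate numbers in the titles only. All groups shared the age (neonate), the sex and the strain background, a hybrid of C57BL/6 and DBA2 crossed with 129/Sv, and the labels name no transgene or drug treatment. The study asked whether faults of reprogramming build up over rounds of cloning, so that each tissue gives the comparisons of G20 with NC, of CC with NC and of G20 with CC.

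Interferons of type I signal through a receptor made of Ifnar1 and Ifnar2 and the kinases Jak1 and Tyk2. These activate a complex that holds Stat2 and Irf9 and binds a DNA element called the interferon-stimulated response element (ISRE). Interferon gamma uses a receptor of its own and acts through another element, the gamma-activated site (GAS). The proteins made from the target genes sense viral RNA, block viral entry, translation and budding, present antigen, and include the factors Stat2, Irf7 and Irf9 themselves, so that the response feeds back on its own machinery. Even without infection many of these genes keep a basal level.

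Promoter sequence was available from RefSeq (build GRCm38.p6) for 28 of the 34 members, as windows from 250 bases before the transcription start to 50 bases after it. The ISRE was searched as GAAANNGAAA on both strands, and the GAS as TTCNNNGAA, which reads the same on both strands; matches may overlap each other. An ISRE match lay in the windows of 15 of the 28 members (53.6%), against 3.99% of 27025 genes in the table. A GAS match lay in those of 9 members (32.1%), against 9.55% of all genes. The stretches below belong to some of the members discussed, or show how the elements are spaced. All lie upstream of the start, run 5′ to 3′ along the gene's own strand, and carry the matched letters in capitals.
Isg15, 3 overlapping ISRE matches, chr4:156200857-156200914 (minus strand): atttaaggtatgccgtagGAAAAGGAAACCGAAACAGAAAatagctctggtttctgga
Igtp, a GAS and an ISRE match, chr11:58199493-58199549 (plus strand): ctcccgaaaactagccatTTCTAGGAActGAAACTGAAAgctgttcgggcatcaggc
Bst2, a GAS match running into 2 ISRE matches, chr8:71537569-71537626 (minus strand): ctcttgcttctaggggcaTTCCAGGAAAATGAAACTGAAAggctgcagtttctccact
Gbp3, 2 overlapping ISRE matches, chr3:142559981-142560032 (plus strand): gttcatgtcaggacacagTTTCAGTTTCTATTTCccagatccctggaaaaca
Irgm1, 2 overlapping ISRE matches, chr11:48871421-48871468 (minus strand): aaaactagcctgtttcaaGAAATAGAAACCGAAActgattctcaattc
Oas1a, a distant GAS and 2 overlapping ISRE matches, chr5:120907526-120907641 (minus strand): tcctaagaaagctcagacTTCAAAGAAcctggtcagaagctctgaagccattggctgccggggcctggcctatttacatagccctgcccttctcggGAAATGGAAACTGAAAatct
Ifit1, 2 separate ISRE matches, chr19:34640767-34640831 (plus strand): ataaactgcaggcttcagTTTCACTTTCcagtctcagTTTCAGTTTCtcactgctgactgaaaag
Ifit3, 2 separate ISRE matches, chr19:34583355-34583434 (plus strand): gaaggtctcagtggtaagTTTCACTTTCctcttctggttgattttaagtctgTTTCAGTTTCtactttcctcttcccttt
Irf1, a GAS match alone, chr11:53769906-53769950 (plus strand): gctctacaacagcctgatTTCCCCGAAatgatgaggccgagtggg
Rsad2, 1 ISRE match, chr12:26456545-26456590 (minus strand): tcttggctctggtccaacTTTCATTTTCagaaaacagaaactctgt
Both elements thus stand in the Igtp, Bst2 and Oas1a windows, Isg15 has a run of overlapping ISRE letters, and Irf1 has the gamma element only. Of the members called lower in G20 liver below, only Isg15 and Igtp are shown here. Irf9 had neither element in its windows, the ISRE match of Ifih1 lay after the start, and Mx1 and Parp14 had no window. A match is a description of the letters and no proof of binding.

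Values below are log2 signal relative to the 75th percentile of the same array, so that 0 is the brightness of the probe at that percentile, and levels of different probes are not set against each other. Differences are differences of group means of these levels with the standard error (SE) of limma's linear model, and a gene was called where the p adjusted over all genes tested (Benjamini-Hochberg) was under 0.05. The arrays were scanned in 3 sessions and lay on 6 slides, each slide holding 1 group of 1 tissue. Liver NC and G20 shared a session, brain NC and G20 shared another, and all CC arrays were scanned in the last, so that in every comparison with CC neither the session nor the slide can be told apart from the group; for the slide this holds for G20 against NC too. Probes well above background made up 68.04% to 70.58% of all probes in NC and G20 brain but 62.4% to 63.84% in CC brain. Among liver arrays this share was lowest for CC, at 53.54% to 56.31%. NC livers had 57.71% to 59.59%, each below every G20 liver (60.49% to 62.9%). Signal at the 75th percentile was 276.3 to 340.8 for NC livers, again below all G20 livers (438.7 to 561.4). The part of this gap in brightness in the liver differences of G20 from NC was not tested. All 9 hepatocyte markers measured in liver were well above background on all NC liver arrays, as were all 10 neuron markers on all NC brain arrays. Since these are whole tissues, fewer cells of a type and less RNA per cell cannot be told apart.

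In liver, 6 of 33 interferon response genes were called lower in G20 than in NC and 0 higher, while 7.31% of all 16363 genes were called and 3% were called lower. The median difference of the members was -0.40 on the log2 scale, against 0.03 for all genes, and 30 of the 33 lay below 0. The called genes were Isg15, Irf9, Mx1, Parp14, Igtp and Ifih1. For 6 members every G20 array lay below every NC array (Ifih1, Irf9, Irgm1, Isg20, Mx1 and Parp14), where 7.04% of all genes showed such a separation; for none did every G20 array lie above (10.6% of all genes). At an unadjusted p under 0.05, 12 members were lower and 0 higher. Under normexp background correction 31.2% of all genes were called, mostly lower. It kept the call of Mx1 alone among the 6 and put Igtp at 0.12. Members outside the 6 were called there instead, among them Tap1, lower although it was at 0.21 ± 0.15 in the reported fit. Of the 23 members called in neither fit 10 had the other sign. By contrast, median and quantile scaling and the deposited matrix kept at least 5 of the 6 calls. Over all genes the calls split into 705 higher and 491 lower, and under median scaling into 378 and 696.

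**Figure D1:**
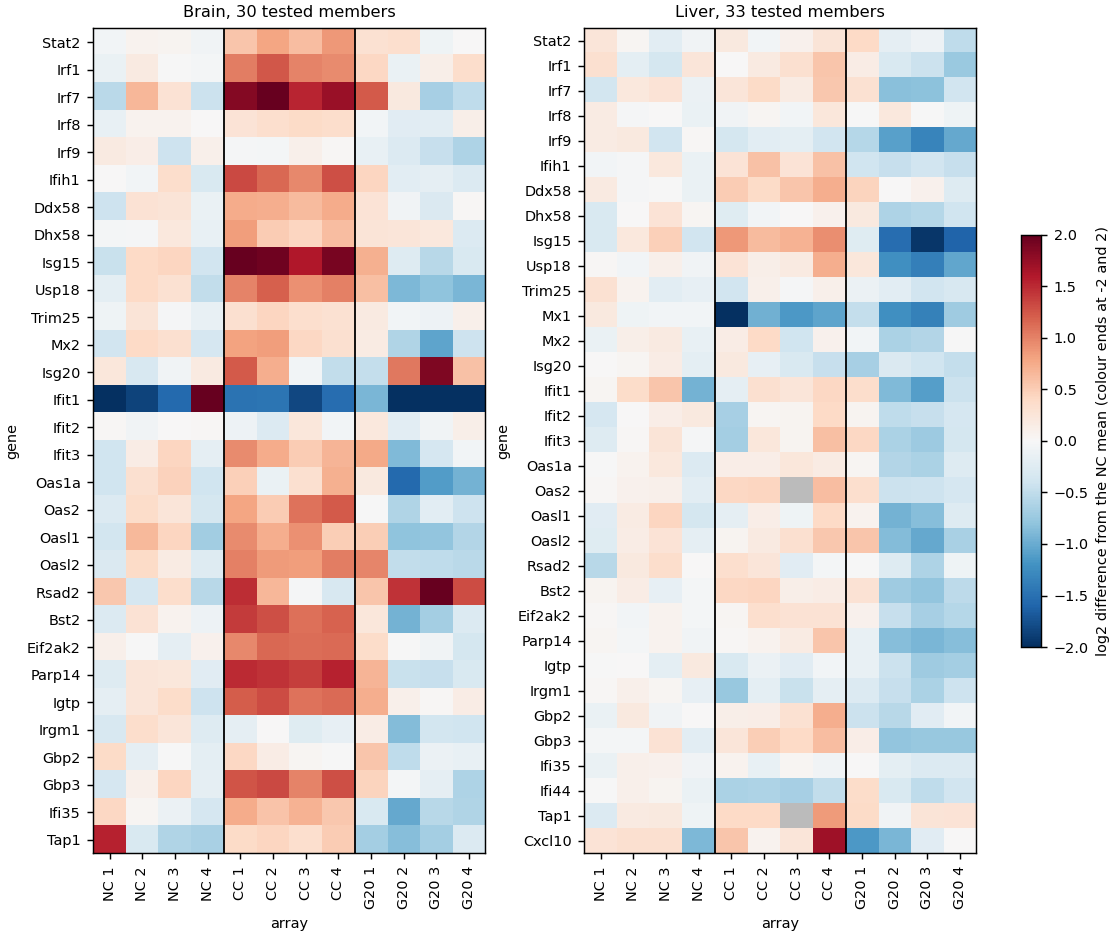
Log2 difference of each array (columns, named by group and replicate) from the NC mean of the same gene (rows) in brain and liver, red above and blue below, with grey for a missing value. In liver, G20 replicates 2 to 4 are blue for 31 of 33 members while replicate 1 is not, and in brain the 4 CC columns are red for most members; the Ifit1 row in brain is set by NC replicate 4.

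Among the transcription factors 1 of 5 fell in G20 liver. Irf9, the DNA-binding partner of Stat2 (probe at mm8 chr14:54563490-54563549), had levels of 2.54, 2.57, 1.99 and 2.39 on the NC arrays and 1.81, 1.29, 1.06 and 1.35 on the G20 arrays. The groups did not overlap, and the difference was -0.998 ± 0.162 (SE, n = 4 against 4), a 2-fold fall with an adjusted p of 0.00526 by limma. A dimmer Irf9 probe differed by -0.61 ± 0.16. Stat2 itself was at -0.10 ± 0.17, and Irf8, a factor of macrophages and other myeloid cells, at 0.03 ± 0.10, neither of them called. Irf1, which answers mainly to interferon gamma, was at -0.33 ± 0.21 and Irf7, the factor that amplifies type I interferon production, at -0.43 ± 0.24, also without a call. A second Irf8 probe gave -0.29 ± 0.11, so that the probes of this gene do not give 1 value.

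In the Isg15 system 1 of 3 members fell. Isg15, a ubiquitin-like protein that is attached to other proteins, had NC levels of 3.20, 3.72, 3.98 and 3.13. On the G20 arrays it had 3.26, 1.99, 1.56 and 1.92, so that 3 arrays lay far below all controls and replicate 1 among them. The difference was -1.33 ± 0.31, a 2.51-fold fall with an adjusted p of 0.0284 by limma. The file places this probe at mm8 chr17:45870420-45870479, whereas RefSeq lists the Isg15 gene on chromosome 4; the gene is named here by the file. Usp18, the protease that removes Isg15 and dampens the interferon receptor, showed the same split: NC arrays stood at 2.45, 2.38, 2.53 and 2.36, and G20 arrays at 2.66, 1.21, 1.06 and 1.39. Its difference of -0.85 ± 0.29 was not called (adjusted p = 0.0962 by limma). Trim25, a ubiquitin ligase that activates the RNA sensor Ddx58, was at -0.26 ± 0.14, without a call.

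Of the 3 cytoplasmic RNA sensors Ifih1 fell. This sensor of long double-stranded RNA (MDA5) had levels of 0.76, 0.79, 1.03 and 0.69 in NC and 0.42, 0.36, 0.43 and 0.35 in G20. The 4 G20 arrays lay close together and below all controls, replicate 1 included, with a difference of -0.43 ± 0.10 (adjusted p = 0.0297 by limma). A much dimmer Ifih1 probe gave -0.17 ± 0.18. Ddx58 (RIG-I), the sensor of short RNA ends, was at 0.07 ± 0.14 and Dhx58 (LGP2), which regulates both, at -0.35 ± 0.18; neither was called.

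Among the antiviral effectors 2 of 14 fell and all 14 differences lay below 0. Mx1, a dynamin-like GTPase that blocks influenza viruses, had NC levels of -2.52, -2.79, -2.76 and -2.76 and G20 levels of -3.19, -3.94, -4.07 and -3.43, without overlap. The difference was -0.95 ± 0.25 (adjusted p = 0.042 by limma). RefSeq lists the mouse Mx1 and Mx2 genes only with non-coding transcripts. Parp14, an ADP-ribosyltransferase, had NC levels between 2.33 and 2.46 and G20 levels of 2.26, 1.55, 1.48 and 1.56, again with replicate 1 next to the controls. It fell by 0.69 ± 0.17 on the log2 scale (adjusted p = 0.0324 by limma). Isg20, an exonuclease, was at -0.46 ± 0.14 (adjusted p = 0.0686) with no overlap between the groups. The oligoadenylate synthetases and their relatives, which trigger or modulate RNA decay, were at -0.36 ± 0.15 (Oas1a), -0.21 ± 0.16 (Oas2, 11 arrays in the fit), -0.50 ± 0.24 (Oasl1) and -0.50 ± 0.29 (Oasl2). The Ifit proteins, which bind foreign RNA, lay between -0.52 ± 0.35 (Ifit1) and -0.31 ± 0.21 (Ifit2), with Ifit3 at -0.33 ± 0.29. Bst2 (tetherin), which holds budding virions at the membrane, was at -0.43 ± 0.20, the kinase Eif2ak2 (PKR), which stops translation, at -0.40 ± 0.14, Mx2 at -0.32 ± 0.19 and Rsad2 (viperin) at -0.24 ± 0.20; none of these was called.

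The GTPases that take part in the defence against intracellular pathogens gave 1 call among 4, with all 4 differences below 0. Igtp (Irgm3) had NC levels of 4.67, 4.69, 4.49 and 4.88 and G20 levels of 4.53, 4.25, 3.97 and 4.01. Only replicate 1 of G20 reached into the control range, and the difference was -0.49 ± 0.13 (adjusted p = 0.0417 by limma). Irgm1, a regulator of the same family, was at -0.44 ± 0.13 (adjusted p = 0.0636 by limma) without overlap between the groups. Another Irgm1 probe, also bright, gave -0.19 ± 0.12. Gbp3 was at -0.54 ± 0.20 and Gbp2 at -0.31 ± 0.15. Of the remaining 4 members none was called: the chemokine Cxcl10 was at -0.57 ± 0.40, Ifi44 at -0.21 ± 0.16 with a dimmer probe at -0.96 ± 0.33, Ifi35 at -0.18 ± 0.09, and the peptide transporter Tap1 at 0.21 ± 0.15 on 11 arrays.

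**Figure D2:**
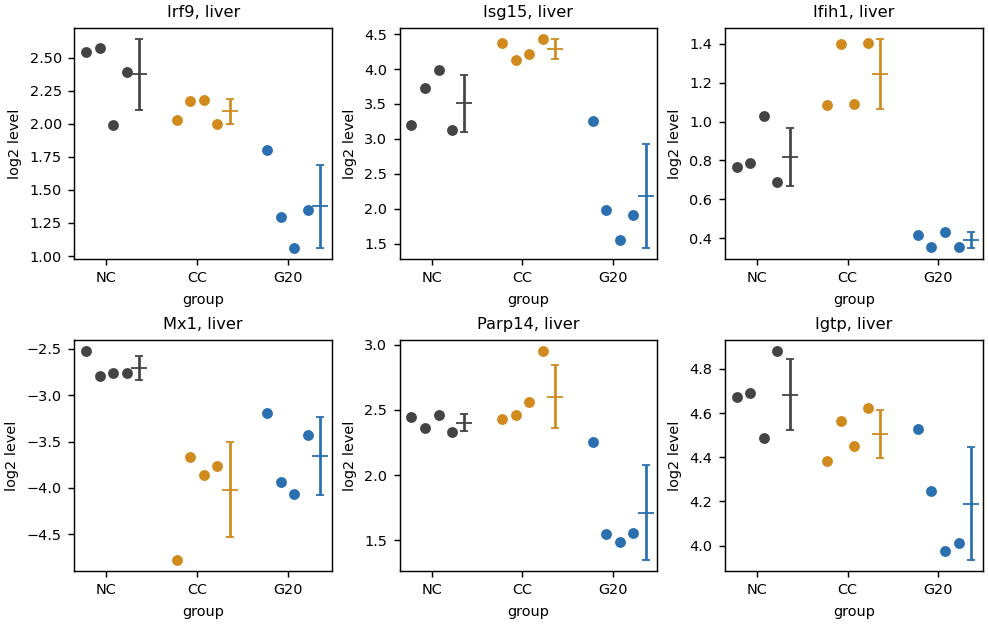
Log2 level relative to the array's 75th percentile (vertical axis) in every liver array for the 6 members called lower in G20 than in NC; points are arrays in replicate order and the bar gives mean and SD of the 4. For Irf9, Ifih1, Mx1 and Parp14 all G20 points lie below all NC points, and for Isg15 and Igtp the first G20 point lies within the NC range.

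The 4 G20 livers did not form 1 level. Measured by the median over all members of the difference from the NC mean, replicates 2, 3 and 4 stood at -0.56, -0.62 and -0.39, each with 31 of 33 members below the NC mean. Replicate 1 stood at 0.05 with 14 of 33 below it, within the range of the NC arrays (-0.12 to 0.10). It was the highest of the 4 G20 arrays for 27 of 33 members, where 35.8% of all genes had this order. The summed level of the members (on the linear scale relative to the 75th percentile) was 180 in replicate 1 and 139, 122 and 137 in the others, against 182 to 200 in NC. Leaving replicate 1 out, limma called 16 of 33 members lower and 0 higher, with a median of -0.50 and 31 of 33 below 0, while 6.53% of all genes were called and 2.95% called lower. Replicate 1 was singled out by its levels in these same members. Leaving it out lowers the difference of each member in which it was the highest G20 array, so these calls are no independent test. All 6 genes of the fit with every array were among the 16 called. Isg15 then fell by 1.69 (adjusted p = 0.00183), Usp18 by 1.21 (0.00173), Irf9 by 1.14 (0.00193), Oasl2 by 0.85 (0.0142), Gbp3 by 0.77 (0.00669), Irf7 by 0.68 (0.0455) and Bst2 by 0.67 (0.0102) on the log2 scale.

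Leaving out any other single array lowered the count. It was 2, 1, 2 and 4 without NC replicate 1, 2, 3 or 4, and 1 without G20 replicate 2, 3 or 4. Irf9 was the gene that kept its call in each of these fits. The number of called members thus moved between 1 and 16 with the array left out, while the number of members below 0 stayed between 29 and 31 of 33.

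**Figure D3:**
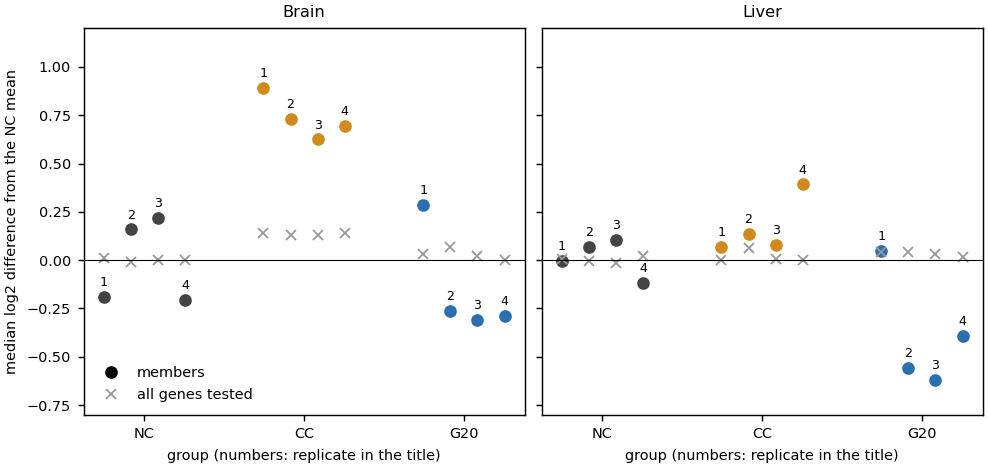
Median over the tested members (filled points) and over all tested genes (crosses) of the log2 difference from the NC mean, for every array by group, numbered by replicate. The first G20 array stands above the other 3 in both tissues (0.29 in brain, 0.05 in liver), and the 4 CC arrays of brain lie between 0.63 and 0.89.

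Markers of other cells were read beside the members in liver. Of 14 macrophage markers 0 were called in G20 against NC (2 higher and 2 lower at an unadjusted p under 0.05), with a median difference of -0.02 and a summed level of 91.1 to 116 against 93.7 to 114 in NC. Of 10 endothelial markers 2 were called lower, with a median of -0.26; their sum was 27.3 in G20 replicate 1 and 18.4 to 20.2 in replicates 2 to 4, against 23.8 to 27.8 in NC. The endothelial sum therefore parted the same G20 arrays as the members did, and its part in the result was not tested. Of 9 hepatocyte markers 1 was called lower, with a median of 0.07 and sums of 2220 to 2720 against 2190 to 2570 in NC. Of 9 erythroid markers 0 were called (2 higher and 0 lower at an unadjusted p under 0.05), with sums of 1460 to 1690 against 1260 to 1470. Of 9 neutrophil markers 0 were called and 8 lay below 0, with sums of 644 to 700 against 625 to 743. Of 9 lymphocyte markers 0 were called, with sums of 10.8 to 14.7 against 9.91 to 15.7. The part of these cells was not tested.

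The genes around the response were measured from further lists. In G20 liver against NC, 0 of 4 interferon genes were called (1 higher and 0 lower at an unadjusted p under 0.05), and Ifnb1 was not among those tested. Of 11 receptors and kinases only Ifnlr1, the receptor chain for interferon lambda, fell (-0.84 ± 0.15, adjusted p = 0.00969 by limma). Ifnar1 at 0.20 ± 0.09, Ifnar2 at 0.19 ± 0.10 and Ifngr1 at 0.33 ± 0.21 were not called. Of 14 upstream sensors and adaptors 1 fell, the kinase Tbk1 that activates Irf3 (-0.31 ± 0.08, adjusted p = 0.0383), and Irf3 itself was at -0.05 ± 0.12. Of 14 negative regulators and of 12 genes of antigen presentation 0 were called (1 higher and 2 lower at an unadjusted p under 0.05 in each). Of 52 other interferon-induced genes 2 fell, the GTPase Irgm2 by 0.70 ± 0.14 (adjusted p = 0.015) and Ube2l6, the conjugating enzyme for Isg15, by 0.32 ± 0.08 (adjusted p = 0.0335). The median of these 52 was -0.19, with 43 of them below 0. Over all these lists together 4 of 107 genes were called lower and 0 higher. Of all genes 7.31% were called and 3% called lower, so these calls are near the share of all genes.

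Members with and without an ISRE match were set side by side in the same comparison. The 15 tested members with a match had a median difference of -0.43 with 3 called lower, and the 12 without one in their windows -0.32 with 1 called lower. Of the 16 members called without G20 replicate 1, 11 had a promoter in the table, and 7 of these held an ISRE match. Among all tested members with a promoter, 15 held a match and 12 did not. Since replicate 1 was dropped for its levels in these same members, the 16 calls are no independent test.

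In brain, 0 of 30 members were called between G20 and NC, where 1.77% of all 18298 genes were called. At an unadjusted p under 0.05, 1 member was higher and 3 were lower. The median difference was -0.10 against 0.03 for all genes, with 21 of 30 below 0. Isg15 was at -0.10 ± 0.27, Irf9 at -0.37 ± 0.14 (adjusted p = 0.166), Ifih1 at -0.06 ± 0.17, Parp14 at -0.14 ± 0.23 and Igtp at 0.25 ± 0.18. Ifi35 (-0.62 ± 0.17, adjusted p = 0.0798) and Oas1a (-0.85 ± 0.34, adjusted p = 0.2) lay lower but were not called; with normexp correction 19 of the 30 members had the other sign, Ifi35 (0.11) among them, and the median was 0.39. Without NC replicate 3, Irf9 was called lower at -0.51; without any other single array the count remained 0.

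Rsad2 stood on the other side in brain. Viperin, its product, makes a chain-terminating nucleotide that stops viral polymerases. Its levels were -1.77, -2.65, -1.95 and -2.86 in NC and -1.76, -0.87, -0.24 and -1.0 in G20, so that every G20 array lay above every NC array; this held for 1 of 30 members and for 7.43% of all genes. The difference was 1.34 ± 0.41 without a call (adjusted p = 0.116), and the 2 other Rsad2 probes gave 1.15 ± 0.54 and 1.17 ± 0.44. Isg20 showed a like order, with -3.45 in G20 replicate 1 and -1.92, -1.10 and -2.40 in the others, against -3.30 to -2.76 in NC (difference 0.76 ± 0.46). For these 2 genes replicate 1 was the lowest G20 array, whereas for most members it was the highest.

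Replicate 1 of G20 also stood apart in brain. It was the highest of the 4 for 25 of 30 members, against 22.8% of all genes, and its median difference from the NC mean was 0.29, with the other 3 at -0.26, -0.31 and -0.29. The controls of brain were themselves spread in pairs, with replicates 2 and 3 at 0.16 and 0.22 and replicates 1 and 4 at -0.19 and -0.21. Oasl2, for example, read -2.11 in G20 replicate 1 and -3.58, -3.60 and -3.62 in the others, with NC between -3.38 and -2.70. Usp18 read -2.75 against -4.24, -4.15 and -4.26, with NC between -3.84 and -2.95. Without replicate 1, again singled out by these same members, their median was -0.35 with 24 of 30 below 0. Still 0 members were called (0.727% of all genes). The labels do not say whether replicate 1 of brain and replicate 1 of liver came from 1 G20 animal; over all genes their deviations from the group means correlated at 0.182, and those of the other G20 pairs of 1 number at 0.041 to 0.134.

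Beside these values, 1 of 11 microglia markers was called lower in G20 brain, with a median of -0.29 and sums of 4.2 to 5.03 against 5.28 to 5.76 in NC. The endothelial sum was 7.22 to 9.97 against 6.46 to 7.52, and the 6 erythroid markers had a median difference of 1.08 with 0 called (5 higher and 0 lower at an unadjusted p under 0.05). Their part in the members' values was not tested. Of the further lists in brain (ligands, receptors, sensors, regulators, other induced genes, antigen presentation), 0 of 88 genes were called (7 higher and 8 lower at an unadjusted p under 0.05); Ifnar1 was at -0.14 ± 0.10, Ifnar2 at 0.11 ± 0.08, Ifngr1 at 0.20 ± 0.08 and Irf3 at 0.04 ± 0.08.

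**Figure D4:**
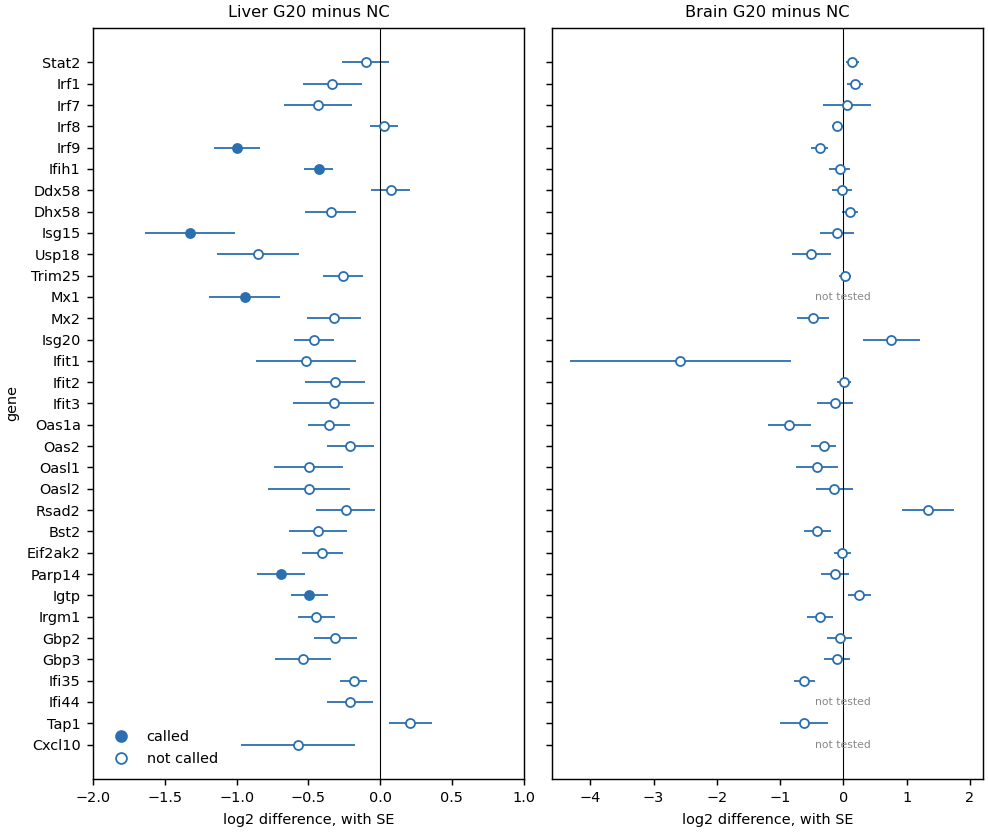
Log2 difference of G20 minus NC for each member (rows) in liver and in brain, with the SE of the model; filled points were called and open ones were not, and the 2 horizontal axes differ in range. In liver 30 of 33 points lie left of 0 with 6 filled, and in brain 0 of 30 are filled, with Rsad2 at 1.34 and the wide bar of Ifit1 at -2.58.

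The Ifit1 value in brain rests on 1 spot. Its NC levels were -6.75, -4.94, -4.65 and 3.97, and the G20 levels -4.00, -6.19, -5.97 and -6.51. On NC replicate 4 the processed signal was 12777.4, although the mean signal of the spot was 52.5 over a background of 43 and the spot was not marked well above background; on the other 11 brain arrays the processed signal lay between 8.1 and 54.1. Such values were rare, with 187 of 987762 above the 75th percentile without being well above background. The difference of -2.58 ± 1.75 was not called, and removing these values, a step chosen after the data were seen, left the counts of called members as they were in all comparisons but that of the tissues (33 instead of 32). Tap1 in brain also had 1 control apart, with -2.77 in NC replicate 1 and -4.97 to -4.61 in the others.

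Whether the fall in G20 differed between the tissues was tested as the difference of the differences over 30 members measured in both. It was called for 0 of them (3.85% of 14764 genes were called, 2.15% lower), with a median of -0.34; at an unadjusted p under 0.05, 6 members had the lower value in liver and 1 had the higher. Rsad2 came nearest at -1.58 ± 0.48 (adjusted p = 0.0679), then Igtp at -0.75 ± 0.23 (0.072) and Irf9 at -0.63 ± 0.22 (0.104). In this fit the 6 calls in liver and 0 in brain are not shown to be a difference between the tissues. With the animal as a replicate block, taking arrays of 1 group and number as 1 animal in both tissues, Isg15 (-1.23, adjusted p = 0.00175 by limma) and Irf9 (-0.63, adjusted p = 0.0163) were called. The labels give such shared source names for NC and CC but not for G20, so for G20 this pairing is an assumption. Without G20 replicate 1 in both tissues, a fit chosen after the data were seen, Isg15 (-1.32) and Rsad2 (-1.92) were called.

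In brain, CC arrays read higher than NC arrays for most members. Limma called 19 of 30 higher and 0 lower, with a median of 0.71 against 0.13 for all genes. This was, however, a comparison in which 69.3% of all genes were called and 41.5% called higher. Every CC array lay above every NC array for 19 members, Irf7 and Oas2 among them, as it did for 38.5% of all genes. Ifit1, Irf7, Oas2 and Oasl1 had passed the filter on dim probes through CC alone, and 2 of these, Irf7 and Oas2, were called; of the other 26 members 17 were called higher. Of the 5 transcription factors Irf1 (1.05 ± 0.12), Stat2 (0.71 ± 0.11) and Irf8 (0.33 ± 0.09) rose, and Irf9 was at 0.01 ± 0.14. Irf7 was also called, but only 2 of its 4 NC spots were well above background, so its difference of 1.77 ± 0.38 is partly set against background.

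All 3 sensors and all 3 members of the Isg15 system were called higher. Isg15 had levels of -3.78, -2.93, -2.90 and -3.72 in NC and -1.31, -1.39, -1.73 and -1.44 in CC, a difference of 1.87 ± 0.27 (adjusted p = 7.22e-05 by limma). Ifih1 was at 1.18 ± 0.17 and Usp18 at 1.02 ± 0.31. Ddx58 was at 0.71 ± 0.16 by its brightest probe, but a dimmer one gave -1.23 ± 0.13, so that its direction depends on the probe. Of 13 effectors 6 were called higher, among them Parp14 (1.47 ± 0.23), Bst2 (1.24 ± 0.21) and Eif2ak2 (1.09 ± 0.13). The 6 include Oas2, which had passed the filter through CC alone. Of the 4 GTPases Gbp3 (1.22 ± 0.21) and Igtp (1.18 ± 0.18) were called higher. Rsad2, Isg20, Oas1a, Gbp2, Irgm1, Ifit2 and Tap1 were not called, and their differences ran from -0.15 ± 0.20 for Irgm1 to 0.45 ± 0.41 for Rsad2. Dimmer Rsad2 probes gave -0.72 ± 0.54 and -0.253 ± 0.435. Mx2 (0.59 ± 0.26), Oasl1 (0.77 ± 0.33) and Ifit1 (-1.57 ± 1.75, with the NC spot described above) were not called either.

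This rise is not seen in the authors' deposited matrix. There the NC and G20 columns equal the scanner's signal times 1 factor for each array (SD of log2 ratios over probes 0.0103 to 0.0554), but the CC columns carry a further factor for each probe, with an SD of 0.627 to 0.657; where that factor comes from is not stated in the sources used here. On the matrix 0 members were called between CC and NC in brain, where 0.659% of all genes were called; Isg15 was then at 0.06 and Irf7 at -0.41. With normexp background correction 11 members were called higher, where 29.1% of all genes were called. How far the CC brains differ in these genes thus depends on which deposited values are used, and no second session of CC arrays was analysed here.

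**Figure D5:**
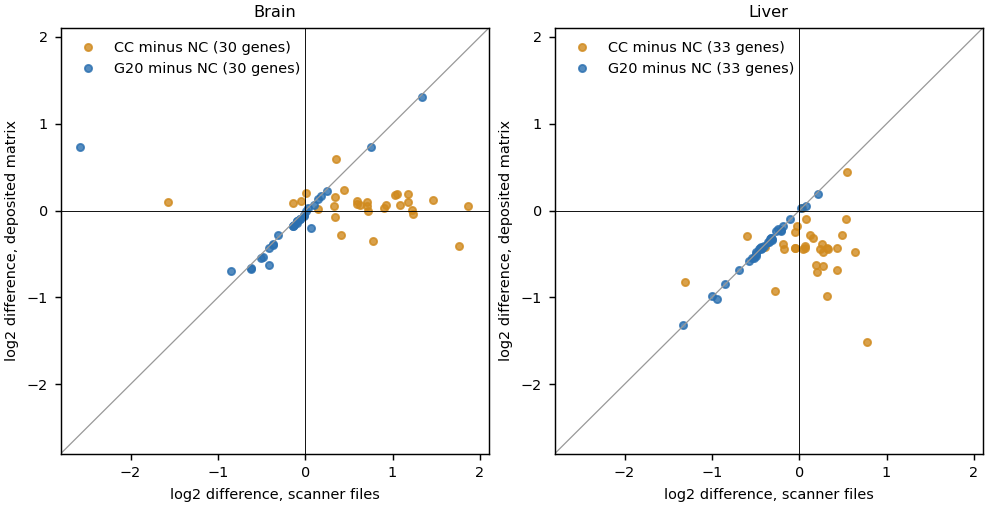
Log2 difference of each member from the scanner files (horizontal axis) and from the authors' deposited matrix (vertical axis), for CC minus NC and G20 minus NC; the grey line marks equal values. The G20 points follow the line apart from brain Ifit1, while the CC points of brain lie near 0 on the matrix and those of liver mostly below 0.

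Other genes of the pathway were read in CC brain from the scanner files, beside the 69.3% of all genes called. All 9 genes of antigen presentation were called higher, among them H2-Ab1 (1.49 ± 0.21), H2-K1 (1.10 ± 0.11), Psmb9 (1.06 ± 0.14) and Cd74 (1.03 ± 0.29). Of 11 receptors and kinases 8 were called higher and 2 lower. Of 40 other induced genes 21 were called higher and 8 lower, a share of 72.5%. Of 11 upstream sensors and adaptors 3 were called higher and 2 lower, with Irf3 at 0.73 ± 0.08, of 14 negative regulators 5 higher and 2 lower, and of 3 interferon genes 2 higher. Of 11 microglia markers 6 were called higher and 1 lower, and their sum was 7.67 to 8.48 in CC against 5.28 to 5.76 in NC. The endothelial sum was 12.5 to 15.5 against 6.46 to 7.52. Markers of hepatocytes, cells of the other tissue, were called higher for 4 of 6 with a median difference of 1.81. Their sums were 1.57 to 4.57 against 1.9 to 2.47. Neuron markers were called higher for 3 of 10 and lower for 5. The part of these cells in the members' values was not tested.

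In liver the comparison of CC with NC gave calls in both directions. Of 33 members 4 were called higher (Ddx58, Ifih1, Oas2 and Tap1) and 3 lower (Mx1, Ifi44 and Irgm1), with a median of 0.16 against 0.03 for all genes, where 40.7% of all genes were called, 19.7% higher and 21% lower. Mx1 had CC levels of -4.78, -3.67, -3.86 and -3.77, below the 4 NC arrays, a difference of -1.31 ± 0.25 (adjusted p = 0.00153 by limma); 3 of its 4 CC spots were well above background. Ifi44 was at -0.60 ± 0.16 and Irgm1 at -0.39 ± 0.13. Ddx58 was at 0.54 ± 0.14, Ifih1 at 0.43 ± 0.10, Tap1 at 0.55 ± 0.16 and Oas2 at 0.49 ± 0.18, the last 2 on 11 arrays. Dimmer Ddx58 probes kept by the filter gave -0.165 ± 0.275 and -0.053 ± 0.152, and one below the filter 0.936 ± 0.159. The rise of Ddx58 thus rests on its brightest probe among those kept. A dimmer Ifi44 probe gave -0.17 ± 0.327. Isg15 at 0.78 ± 0.31 was not called (adjusted p = 0.068), though its CC levels of 4.14 to 4.43 lay above all NC levels.

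The deposited matrix gave another picture here too. On it 6 members were called lower in CC liver and 0 higher, where 8.91% of all genes were called, with Isg15 at -1.51, Mx1 at -0.83, Parp14 at -0.70 and Ifih1 at -0.43. Only Mx1 thus had a call in 1 direction from both sources among the genes named here. With normexp correction 0 members were called (1.4% of all genes). Hepatocyte markers were called lower in CC liver for 6 of 9, with sums of 738 to 1450 against 2190 to 2570 in NC, and endothelial markers higher for 5 of 10 and lower for 1. Erythroid markers were called lower for 5 of 9, with sums of 153 to 1110 against 1260 to 1470. Neutrophil markers were called lower for 6 of 9, with sums of 460 to 516 against 625 to 743. Markers of neurons, cells of the other tissue, were called higher for 2 of 4. For all of these, their part in the result was not tested.

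The change from NC differed between tissues for CC in 12 of 30 members by the scanner files, all with a smaller or more negative value in liver, where 54% of all genes were called and 34.6% called lower. Irf7 differed by -1.43 ± 0.47, Igtp by -1.36 ± 0.23, Parp14 by -1.27 ± 0.29 and Isg15 by -1.09 ± 0.44. Irf7 had passed the filter in brain through CC alone, so its value is partly set against background. On the matrix 2 members were called (6.85% of all genes) and with normexp correction 1 (11.7%).

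Set directly against CC, G20 read lower for 24 of 30 members in brain and for 16 of 33 in liver, with 0 higher in each. Of the 4 brain members that had passed the filter through CC alone, 3 were among the 24 (Irf7, Oas2 and Oasl1). Of the other 26 members 21 were called lower. The shares of all genes called were 67.5% in brain (39% lower) and 45% in liver (20.4% lower). Isg15 was 3.9-fold lower in brain and 4.3-fold lower in liver, and Usp18 2.88-fold and 2.26-fold. In liver Irf9 was lower by 0.72 ± 0.16 and Ifih1 by 0.86 ± 0.10. Every G20 array lay below every CC array for 20 members in brain and for 10 in liver, as it did for 34.8% and 17.8% of all genes, and above for 0 in brain and 0 in liver, as for 24.8% and 22.5% of all genes. Irf7 and Oas2 were among the members lying below in brain. The comparisons of G20 with CC share the G20 and CC arrays with those above. On the deposited matrix 0 members were called in either tissue, where only 1.32% of all genes were called in brain and 0.205% in liver.

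Levels of the control animals differed widely between the tissues. Of 33 members 32 were called higher in NC liver than in NC brain and 0 lower, with a median of 4.73. Of all 19881 genes 89.1% were called and 45.8% called higher, and the scan sessions of the 2 tissues differed. Cxcl10, Ifi44 and Mx1 had passed the filter through liver alone, where they are high, and count among the 32. The median is the value of Ifi44. Of the 30 members measured in both tissues, only Ifit1 was not called. Rsad2 was 184-fold higher, Isg20 148-fold, Igtp 146-fold and Isg15 115-fold. Cxcl10 and Mx1 were not well above background on any brain array, and were at least 109-fold and at least 17-fold higher in liver, bounds taken against the lowest signal among probes well above background. Ifit2 at 0.64 ± 0.18, Tap1 at 1.72 ± 0.32 and Stat2 at 2.11 ± 0.15 had the smallest called differences. Ifit1, at 2.23 ± 1.36, was the member without a call, and was called once the doubtful spot was removed. In brain, Irf7, Oas2, Oasl1, Ifit1 and Ifi44 were well above background on only 2 or 3 of the 4 NC arrays, so that low basal levels there limit what could be detected.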

How the data were processed

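Single-colour arrays were run on brain and liver of newborn mice, 4 arrays for each of 3 groups in each tissue. Per the file headers, the deposited intensity values came from Agilent Feature Extraction 9.5.3.1, with background subtracted and very low values replaced; positions refer to mm8. The flags of each spot (well above background, saturated, outlier), other values of 0 or 1, are deposited in the same files. The deposited matrix holds linear intensity values; its NC and G20 columns are the scanner's processed signal times about 1 factor per array, its CC columns also carry a factor for each probe, and its centring and the origin of that factor are unknown here. No column of it was left unused (0 unused).

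Outlier spots were removed, replicate spots averaged, and the deposited intensities put on the log2 scale less each array's 75th percentile. Probes entered the fit of a tissue if some group had them well above background on each of its 4 arrays, and a gene was its probe with the highest mean. Groups came from the labels. Contrasts were fitted over the 12 arrays of a tissue, or all 24 between tissues, with limma 3.58.1 in R 4.3.3 (data.table, version 1.17.8) and Benjamini-Hochberg adjustment, and checked on simulated data. The labels give 4 numbered sources each for NC and CC, shared by both tissues, but 1 source name for all G20 arrays, so p-values measure only the spread between these arrays, which may be technical; their number limits the precision. Same-numbered brain and liver arrays had deviations that correlated at 0.183 to 0.24 in CC, 0.022 to 0.321 in NC and 0.041 to 0.182 in G20. Alternatives were normexp (offset 50), median and quantile scaling, other filters and probe rules, the matrix, a replicate block, and each array left out; 2 more were added after the data were seen. All 34 members are described; of other lists at most the 4 called genes with the largest difference are named, with Ifnar1, Ifnar2, Ifngr1, Irf3 and Ifnb1; 1 more gene of that rule is not reported here. Members, lists and tests were chosen with earlier results of these data known.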

Additional observations from a re-analysis of the deposited data

Results flagged for a closer look

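Single arrays stood apart from the other 3 of their group by a gap test on the range (Dixon's, at 95%), which chance meets in about 1 of 20 groups. Among the members this happened in 6 of 30 tests in G20 brain (20%, against 6.61% of all genes) and in 3 of 33 in G20 liver (9.09%, against 6.42%). In G20 brain replicate 1 was the high array for Ifih1 (-3.53), Oasl1 (-5.04), Oasl2 (-2.11), Parp14 (-2.55) and Usp18 (-2.75), and for the median over all members (0.29); replicate 4 was the low array for Dhx58 (-4.31). In G20 liver replicate 1 was the high array for Gbp3 (0.86), Oas2 (0.11) and Parp14 (2.26).

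Elsewhere the array apart was NC replicate 3 of brain for Irf9 (low, -0.84), NC replicate 1 of brain for Tap1 (high, -2.77), CC replicate 3 of brain for Ddx58 (low, -3.51), NC replicate 4 of liver for Cxcl10 (low, -0.86), NC replicate 1 of liver for Mx1 (high, -2.52) and CC replicate 1 of liver for Eif2ak2 (low, 0.73).

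The difference of CC from NC was unequal in the 2 tissues, by limma's test of the difference of differences, for 12 members. Liver minus brain it was -0.96 for Bst2, -0.65 for Dhx58, -0.85 for Eif2ak2, -0.78 for Gbp3, -0.66 for Ifi35, -0.75 for Ifih1, -1.36 for Igtp, -0.79 for Irf1, -1.43 for Irf7, -1.09 for Isg15, -1.27 for Parp14 and -0.59 for Stat2. Irf7 had passed the filter in brain through CC alone, so its value is partly set against background. All CC arrays were scanned in a session of their own.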

How the results depend on the processing

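Counts of called members that moved by over 1.5 times were these. With normexp correction they were 11 for CC against NC in brain, 6 for G20 against CC in brain, 0 for CC against NC and 2 for G20 against CC in liver, and 1 for the tissue difference of CC. On the authors' deposited matrix they were 0, 0, 6 (all lower), 0 and 2 for the same comparisons. For G20 against NC in liver the count was 3 without the filter on dim probes. For CC against NC in liver it was 4 with a strict filter and 3 with the mean of all probes of a gene. The tissue difference of G20 had 2 calls without G20 replicate 1 in both tissues. Elsewhere the causes were not tested.

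With each array left out in turn, the counts ran from 1 to 16 for G20 against NC in liver, 0 to 1 in brain, 18 to 21 and 5 to 6 for CC against NC in brain and liver, 22 to 25 and 12 to 20 for G20 against CC, 0 to 3 and 10 to 14 for the tissue differences of G20 and CC, and 32 to 33 for liver against brain.

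With the replicate number as a block, 1 member (Irf9) was called for G20 against NC in liver, 0 in brain, and 2 (Isg15 and Irf9) for the tissue difference of G20; the counts were 18 and 5 for CC against NC in brain and liver, and 17 for the tissue difference of CC. Between the tissues the block is the animal, which the labels name for NC and CC; all 4 CC arrays of brain correlated best with their own number in liver, as did 2 of 4 in NC and in G20. Within a tissue, arrays of 1 number share only that number: their deviations correlated at -0.02 to 0.13 for G20 and NC in brain and 0.04 to 0.08 in liver.

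Signs also turned for members called in neither fit, in 60 of 161 cases over the comparisons with normexp correction, 42 of 160 on the matrix, 15 of 161 with the mean of all probes, 10 of 154 with median and 8 of 161 with quantile scaling. For members called in at least 1 of the 2 fits, signs that turned were, on the deposited matrix: for CC minus NC in brain Bst2 (-0.036), Ifit3 (-0.001), Irf7 (-0.41) and Trim25 (-0.077), and in liver Ddx58 (-0.093), Ifih1 (-0.43), Isg15 (-1.51), Oas2 (-0.28) and Parp14 (-0.70); for G20 minus CC in brain Igtp (0.039), Irf7 (0.21), Stat2 (0.084) and Trim25 (0.11), and in liver Bst2 (0.064), Ddx58 (0.14), Eif2ak2 (0.029), Gbp2 (0.10), Gbp3 (0.13), Irf1 (0.064), Irf7 (0.009), Isg15 (0.19), Oas2 (0.052), Oasl2 (0.14), Parp14 (0.02) and Usp18 (0.15); and Ifit2 between the tissues (-0.32). With normexp correction Igtp (0.12) and Tap1 (-0.88) turned for G20 minus NC in liver and Tap1 (-0.033) for CC minus NC in liver. With the mean of all probes Ddx58 turned in brain (-0.10 for CC minus NC, 0.17 for G20 minus CC) and Ifit3 in liver (-0.87 for CC minus NC). Irf9 lost its call in G20 liver under 1 of 19 alternatives (normexp, -0.52). Dim probes limit brain, where 3 of 33 members could not be tested.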
